A study of Mus musculus with 6 samples.

Results

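Krüppel-like factors (KLFs) are zinc-finger transcription factors that bind CACCC and GC-rich DNA, and 10 of them are described here in cultured mouse aortic vascular smooth muscle cells (VSMCs), muscle cells that contract the vessel. They are Klf2, Klf3, Klf4, Klf5, Klf6, Klf7, Klf9, Klf10, Klf13 and Klf15, taken by symbol from a table of 22482 protein-coding genes, and all 10 were found. The cells came from C57BL/6 mice, grew in medium with 10% fetal bovine serum and were harvested 48 h after adenovirus was added. RNA was freed of ribosomal RNA and sequenced as stranded total RNA libraries. Of the 6 libraries, 3 are labelled Myocd knockdown (knockdown adenovirus) and 3 are labelled control (negative control adenovirus), although the series' design text calls the control cells wildtype. Both groups thus carried a virus by their sample labels, and the labels leave unsaid if libraries within a group are separate cultures, animals or repeat preparations. A p-value here speaks only to the spread among these 6 libraries, part or all of which may be technical.

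Myocardin, encoded by Myocd, is the coactivator that drives contractile genes of smooth muscle together with serum response factor at CArG boxes. KLF4 is known to oppose it: in mouse and rat VSMCs it represses Myocd and the contractile genes when cells leave the contractile state. KLF5 is known as a growth factor-responsive activator of dedifferentiated VSMCs. The other members divide into activators (KLF2, KLF6, KLF7), repressors that recruit CtBP (KLF3) or SIN3A (KLF9, KLF10, KLF13), and a regulator of muscle metabolism (KLF15). The comparison asked whether the mRNA of these factors differs between the groups.

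The Myocd mRNA ran against the labels. It had 132, 130 and 146 FPKM (fragments scaled for transcript length and library size by the authors) in the libraries labelled knockdown, against 0.0355, 0 and 0.125 FPKM in those labelled control. The log2 difference was 9.87 ± 0.28 (SE; limma adjusted p = 1.11e-05). Every direction below is therefore that of the libraries labelled knockdown over the libraries labelled control, and does not say what loss of Myocd does. The smooth muscle actin Acta2 averaged 340 ± 7.16 FPKM in knockdown-labelled libraries, against 67.2 ± 4.16 FPKM in control-labelled libraries (SD, n = 3 each). Among other defining smooth muscle markers, Myh11 was at most 0.0846 FPKM and Cnn1 at most 0.353 FPKM in any library. These 2 markers of mature smooth muscle were thus near 0 in both groups. They were the only 2 under 0.5 FPKM in every library among 13 listed contractile genes, Myocd and Srf included. The 13 genes summed to 854 to 921 FPKM in the libraries labelled knockdown, against 384 to 427 FPKM in those labelled control. These sums include the Myocd and Acta2 values above. Of the 13 genes 11 were tested, and 5 of those were not called by limma. The mRNA table held 7528170 to 9117649 fragments per library labelled knockdown and 9303510 to 9793781 per library labelled control. Knockdown replicate 3 was the shallowest.

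No KLF passed the main test, limma on log2(FPKM + 0.1) across all 11612 genes with at least 0.5 FPKM in at least 3 libraries, at a Benjamini-Hochberg adjusted p under 0.05. All 10 passed that filter on low values. The background was 3.44% of tested genes called (400 genes, and 44 to 178 when any 1 library was left out), with 1.83% higher and 1.61% lower. At an unadjusted p under 0.05 there were 2 KLFs, Klf3 and Klf10, and 22.4% of all tested genes. Both were called by edgeR's quasi-likelihood test on fragment counts, Klf3 higher and Klf10 lower, where 9.95% of 11563 genes were called. DESeq2 called the same pair (7.53% of 9523 genes with an adjusted p), and so did limma on the deposited counts (9.72% of 11612). The call for these 2 genes thus differed between FPKM and count tests, while their direction was the same in each.

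**Figure D1:**
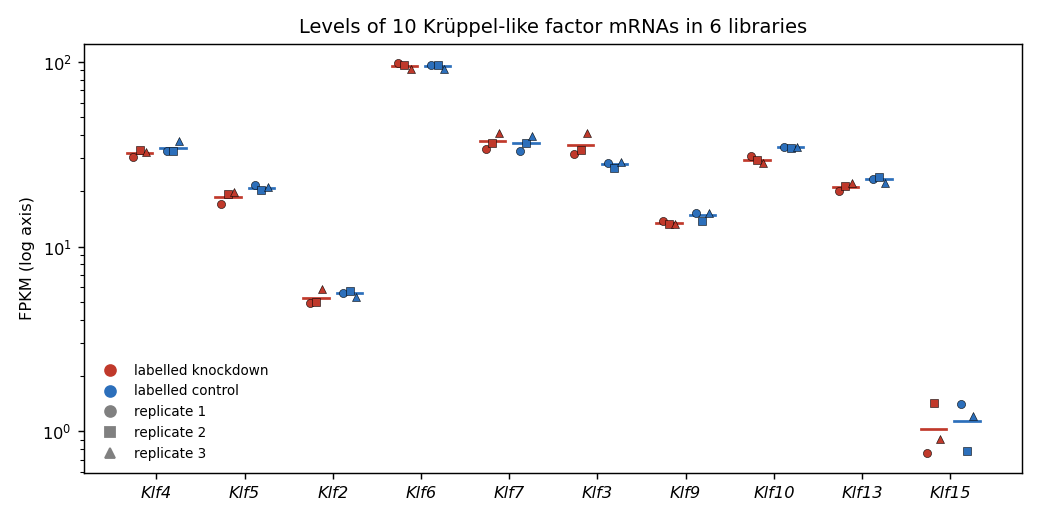
FPKM (log axis) of the 10 KLFs in each library; red marks are the 3 libraries labelled knockdown, blue marks the 3 labelled control, shapes the replicate numbers and bars the group means. Klf6 lies above all others at 91.5 to 97.9 FPKM, Klf15 lies lowest near 1 FPKM, and the groups sit close together for every gene.

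The levels of the members spread over almost the whole range of expressed genes. Klf6 was highest in both groups, at 95.1 ± 3.30 FPKM in knockdown-labelled libraries, against 94.5 ± 2.54 FPKM in control-labelled libraries (SD, n = 3 each), and its mean over all 6 libraries lay above that of 93.7% of tested genes. It alone made up 30.9% to 34.8% of the summed FPKM of the 10 genes. In the libraries labelled knockdown, Klf7, Klf3, Klf4 and Klf10 followed, and each overlapped its neighbour in this order; Klf13, Klf5, Klf9, Klf2 and Klf15 came after them with no overlap between neighbours. In the libraries labelled control the order was Klf6, Klf7, Klf10, Klf4, Klf3, Klf13, Klf5, Klf9, Klf2 and Klf15, and the overlapping neighbours were Klf7 with Klf10 and Klf10 with Klf4. Klf3 and Klf10 thus exchanged the third and the fifth place. Klf7 (80.4% of tested genes below it), Klf4 (78.2%), Klf10 (77.3%), Klf3 (77.0%), Klf13 (66.9%) and Klf5 (63.3%) lay in the upper part of the expressed genes and Klf9 (51.9%) in the middle. Klf2 lay above 24.8% of tested genes and Klf15 above 5.46%. The summed FPKM of the 10 was 281.4, 288.6 and 296.1 in the libraries labelled knockdown, against 291.8, 290.1 and 296.6 in those labelled control, and the groups overlapped.

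The 300 bases around the RefSeq start of a KLF gene (250 before and 50 after, GRCm38.p6) are shown for the KLF with the clearest rise in counts and for the 2 most abundant KLFs, since KLFs are known to bind the CACCC motif and to regulate each other's genes. Capitals mark CACCC on either strand (CACCC or GGGTG as read 5′ to 3′). The Klf3 stretch is chr5:64803271-64803570 on the plus strand, the Klf7 stretch chr1:64121340-64121639 on the minus strand, and the Klf6 stretch chr13:5861239-5861538 on the plus strand.
Klf3: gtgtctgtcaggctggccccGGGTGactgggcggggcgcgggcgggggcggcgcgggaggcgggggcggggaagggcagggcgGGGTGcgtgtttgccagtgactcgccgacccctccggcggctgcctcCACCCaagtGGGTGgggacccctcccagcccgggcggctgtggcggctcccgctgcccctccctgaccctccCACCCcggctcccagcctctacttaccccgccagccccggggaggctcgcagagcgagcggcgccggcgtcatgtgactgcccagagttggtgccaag
Klf7: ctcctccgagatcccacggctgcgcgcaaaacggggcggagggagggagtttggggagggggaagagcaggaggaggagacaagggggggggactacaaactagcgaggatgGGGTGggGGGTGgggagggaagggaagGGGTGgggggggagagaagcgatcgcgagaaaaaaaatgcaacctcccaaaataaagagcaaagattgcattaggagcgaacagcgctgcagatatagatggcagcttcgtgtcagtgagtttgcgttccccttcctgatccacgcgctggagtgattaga
Klf6: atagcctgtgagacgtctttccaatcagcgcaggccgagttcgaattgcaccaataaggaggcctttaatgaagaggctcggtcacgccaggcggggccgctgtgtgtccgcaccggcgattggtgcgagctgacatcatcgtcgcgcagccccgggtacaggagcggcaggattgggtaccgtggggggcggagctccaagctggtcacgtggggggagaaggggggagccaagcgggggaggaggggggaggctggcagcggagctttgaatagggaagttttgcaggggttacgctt

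The RefSeq promoter table held 8 of the 10 members. CACCC occurred 5 times in the Klf3 stretch, 3 times in that of Klf7, 1 time in each of Klf2, Klf9, Klf13 and Klf15, and not in those of Klf4 and Klf6. Thus 6 of 8 held it, against 57.5% of all 32851 promoters of that length. The GC box core GGGCGG, searched on both strands and counted apart from CACCC even where the letters overlap, was in 7 of 8, with 6 matches in Klf3 and 4 in Klf4, against 35.7% of all promoters. No CArG box, the serum response element through which myocardin acts, was found in the 8 stretches (1.63% of all promoters), and no TATAAA (13.6% of all promoters). The 8 stretches were 58.3% to 76.7% G or C, with a median of 52.7% over all promoters. These matches describe letters in a window, and no binding was measured.

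Klf4 (ENSMUSG00000003032, mm10 chr4:55527143-55532466, minus strand), the repressor of contractile genes, had 30.5, 33.4 and 32.3 FPKM in the libraries labelled knockdown, against 32.9, 32.9 and 37.1 FPKM in those labelled control. The groups overlapped, and control replicate 3 was the highest library. In limma the log2 difference was -0.09 with a 95% interval of -0.25 to 0.06 (adjusted p = 0.448), a fold of 0.839 to 1.05. In the deposited counts the sign was the other way, with 911, 994 and 1002 in the libraries labelled knockdown, against 943, 924 and 948 in those labelled control, and a log2 difference of 0.06 in edgeR (adjusted p = 0.495). Klf4 thus showed no call in either unit and no stable direction, beside a Myocd level that differed by a log2 of 9.87 between the same libraries.

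Klf5 (ENSMUSG00000005148, mm10 chr14:99298691-99313405, plus strand), the activator of Pdgfa and other growth genes, had 16.9, 19.3 and 19.6 FPKM in the libraries labelled knockdown, against 21.4, 20.3 and 20.9 FPKM in those labelled control. All 3 libraries labelled knockdown lay below all 3 labelled control, with knockdown replicate 1 the lowest. Its log2 difference was -0.17 with a 95% interval of -0.34 to 0.01 (limma adjusted p = 0.239; edgeR -0.15, adjusted p = 0.266). Without knockdown replicate 1 the limma difference was -0.10, and with any other library left out it lay between -0.21 and -0.15. The deposited counts gave the same order, with 276, 316 and 327 in the libraries labelled knockdown, against 351, 332 and 348 in those labelled control. Klf5 was called by no tool, although its difference exceeded in size that of 58.7% of tested genes.

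Klf2 (ENSMUSG00000055148, mm10 chr8:72319033-72321656, plus strand), the flow-induced factor of endothelium, had 4.97, 5.0 and 5.91 FPKM in the libraries labelled knockdown, against 5.63, 5.78 and 5.34 FPKM in those labelled control. The groups overlapped, and knockdown replicate 3 was the highest of the 6. Its log2 difference was -0.08 with a 95% interval of -0.34 to 0.18 (limma adjusted p = 0.711). Of 10 endothelial markers, 9 stayed under 0.5 FPKM in every library. Emcn was listed at 0 in all 6 libraries, and Pecam1 and Cdh5 stayed at or under 0.429 FPKM. The summed level of the 10 was 1.30 to 2.50 FPKM in the libraries labelled knockdown and 0.468 to 1.2 FPKM in those labelled control. The tenth, Vwf, was tested, at 1.24 ± 0.330 FPKM in knockdown-labelled libraries, against 0.185 ± 0.107 FPKM in control-labelled libraries (SD, n = 3 each; limma adjusted p = 0.0346). That call was lost in edgeR (adjusted p = 0.0869) and when any 1 library other than control replicate 3 was left out. Vwf stayed under 0.5 FPKM in the libraries labelled control, so it passed the filter on low values only through those labelled knockdown. A list filtered in this way could show a rise only, and no conclusion is drawn from the call. The part of these cells in the Klf2 value was not tested.

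Klf6 (ENSMUSG00000000078, mm10 chr13:5861489-5870393, plus strand), an injury-induced factor reported to activate TGF-β pathway genes, was the steadiest member. It had 97.9, 96.0 and 91.5 FPKM in the libraries labelled knockdown, against 96.4, 95.5 and 91.6 FPKM in those labelled control, with replicate 3 the lowest of each group. The log2 difference was 0.01 with a 95% interval of -0.10 to 0.11 (limma adjusted p = 0.927), the narrowest interval of the 10. Only 4.14% of tested genes had a smaller difference in size. Klf6 is also the best counted member, with 4327, 4162 and 3365 fragments in the libraries labelled knockdown and 4606, 4324 and 4193 in those labelled control. The edgeR difference was 0.02 (adjusted p = 0.737).

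Klf7 (ENSMUSG00000025959, mm10 chr1:64029447-64122282, minus strand), the closest relative of Klf6 and a factor of neurons and fat precursors, had 33.7, 36.6 and 41.3 FPKM in the libraries labelled knockdown, against 32.7, 36.6 and 39.7 FPKM in those labelled control. The groups overlapped almost fully, and replicate 3 was the highest of each. In limma the log2 difference was 0.03 with a 95% interval of -0.19 to 0.26 (adjusted p = 0.865), and it was -0.03 in edgeR on the fragment counts (adjusted p = 0.702). As for Klf4, no direction held across the 2 units.

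Klf3 (ENSMUSG00000029178, mm10 chr5:64708207-64830129, plus strand in the table, whose locus begins well before the RefSeq start), the CtBP-recruiting repressor, had 31.8, 33.2 and 40.9 FPKM in the libraries labelled knockdown, against 28.3, 26.7 and 28.6 FPKM in those labelled control. Every library labelled knockdown lay above every library labelled control, and knockdown replicate 3 stood above the other two of its group. Means were 35.3 ± 4.94 FPKM in the libraries labelled knockdown and 27.9 ± 1.01 FPKM in those labelled control (SD, n = 3 each), a ratio of 1.27. Its log2 difference was 0.33 ± 0.10 (SE) with a 95% interval of 0.10 to 0.56, at a limma adjusted p of 0.110. Deposited counts were 681, 719 and 853 in the libraries labelled knockdown, against 610, 599 and 619 in those labelled control.

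On the fragment counts Klf3 rose by 0.31 on the log2 scale (edgeR adjusted p = 0.0239; DESeq2 0.31, adjusted p = 0.0190). Without knockdown replicate 3 the edgeR difference was 0.21 (adjusted p = 0.0364). The edgeR call was lost without knockdown replicate 2 (adjusted p = 0.0566), control replicate 1 (0.0798) or control replicate 2 (0.0877). The difference in Klf3 was larger in size than that of 83.1% of tested genes in the main test.

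Klf10 (ENSMUSG00000037465, mm10 chr15:38294413-38300707, minus strand), the TGF-β-inducible early gene whose product recruits SIN3A, had 31.0, 29.3 and 28.3 FPKM in the libraries labelled knockdown, against 34.4, 34.0 and 34.8 FPKM in those labelled control. The groups were apart, and the libraries labelled control lay within a narrow band. Means were 29.5 ± 1.33 FPKM in the libraries labelled knockdown and 34.4 ± 0.372 FPKM in those labelled control (SD, n = 3 each), a difference of -14.1%. The log2 difference was -0.22 ± 0.05 (SE) with a 95% interval of -0.34 to -0.09, at a limma adjusted p of 0.0711. On the fragment counts Klf10 fell by 0.21 on the log2 scale (edgeR adjusted p = 0.0157; DESeq2 -0.21, adjusted p = 0.0449). The deposited counts were 957, 907 and 884 in the libraries labelled knockdown, against 1062, 1051 and 1084 in those labelled control, also apart. The edgeR call was lost without knockdown replicate 2 (adjusted p = 0.0663) or control replicate 1 (0.0558). In size the Klf10 difference exceeded that of 69.4% of tested genes.

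Klf9 and Klf13 share with Klf10 the known use of SIN3A. Klf9 (ENSMUSG00000033863, mm10 chr19:23141226-23166911, plus strand), a gene induced by thyroid hormone and glucocorticoids, had 13.8, 13.2 and 13.2 FPKM in the libraries labelled knockdown, against 15.3, 13.8 and 15.2 FPKM in those labelled control. The groups overlapped at knockdown replicate 1 and control replicate 2 and were otherwise apart. Its log2 difference was -0.14 with a 95% interval of -0.31 to 0.03 (limma adjusted p = 0.297). Klf13 (ENSMUSG00000052040, mm10 chr7:63886347-63938915, minus strand), known as an activator of Ccl5 in T cells, had 20.0, 21.3 and 22.0 FPKM in the libraries labelled knockdown, against 23.3, 23.8 and 22.2 FPKM in those labelled control. Knockdown replicate 3 and control replicate 3 were almost level, so the groups were apart by a small margin. Its log2 difference was -0.13 with a 95% interval of -0.28 to 0.02 (limma adjusted p = 0.268), and the table gives its locus jointly with E030018B13Rik, so reads could have been split between them. In deposited counts Klf13 had 1145, 1166 and 1162 in the libraries labelled knockdown, against 1276, 1237 and 1215 in those labelled control, a clearer gap than in FPKM. The edgeR difference of Klf13 was -0.09 (adjusted p = 0.193), and that of Klf9 was -0.13 (adjusted p = 0.241).

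Klf15 (ENSMUSG00000030087, mm10 chr6:90462576-90475238, plus strand), a glucocorticoid-responsive factor that controls amino acid use in muscle, had 0.758, 1.41 and 0.906 FPKM in the libraries labelled knockdown, against 1.40, 0.781 and 1.21 FPKM in those labelled control. These values rest on 18, 33 and 18 fragments in the libraries labelled knockdown and 36, 19 and 30 fragments in those labelled control. The groups overlapped fully. In limma the log2 difference was -0.14 with a 95% interval of -0.90 to 0.63 (adjusted p = 0.835), so at this depth neither a fold of 0.536 nor a fold of 1.54 lies outside the interval.

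**Figure D2:**
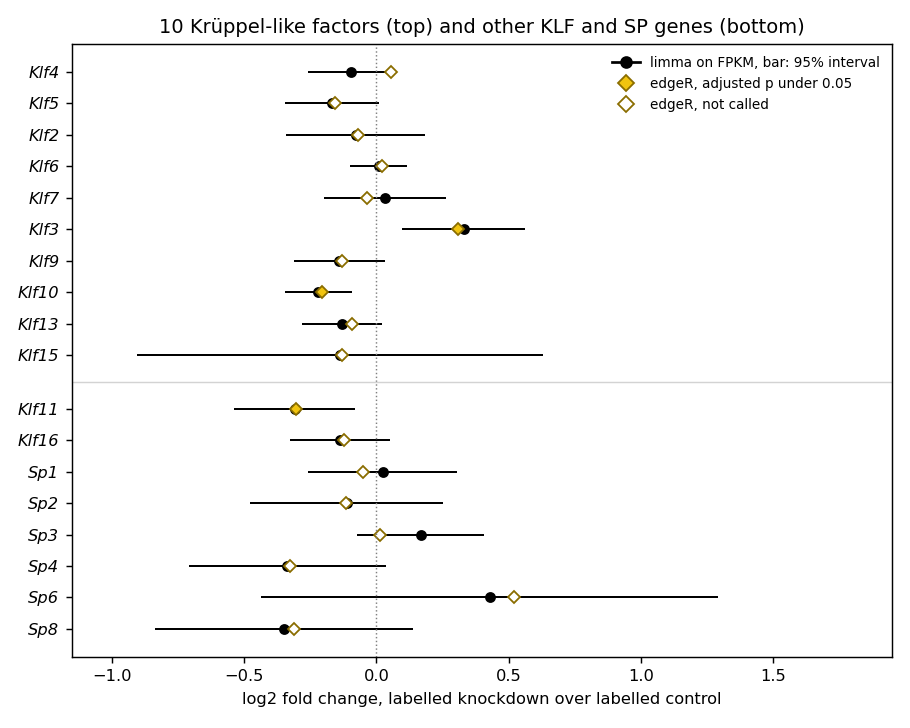
Log2 fold change, libraries labelled knockdown over those labelled control, for the 10 KLFs (top) and the 8 other tested KLF and SP genes (bottom); black points are limma on FPKM with 95% intervals, diamonds edgeR on fragment counts (filled where the adjusted p is under 0.05). Klf3 (0.33) and Klf10 (-0.22) have intervals clear of 0 on either side, as does Klf11 (-0.31), while Klf4 and Klf7 have the circle and diamond on opposite sides of 0.

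Over the 10 genes, 7 had a negative and 3 a positive log2 difference in the main test. Among all tested genes 6063 were negative and 5549 positive. The signs of Klf4, Klf6, Klf7 and Klf15 changed under some alternative settings, so the split of the 10 was not stable. The median of the 10 was -0.11, beside -0.0098 for all tested genes. The median size was 0.133 for the 10 and 0.133 for all tested genes. The KLFs thus differed by about as much as a typical gene. Their FPKM ranges did not overlap between groups for 4 of 10 (Klf3, Klf5, Klf10 and Klf13), beside 28.9% of all tested genes, and the same 4 were apart in the deposited counts. For each of these 4 the exact two-sided permutation test gave p = 0.1, and no smaller p can come from 3 against 3 libraries. Groups that do not overlap always give this value, so the test adds nothing to their separation. In bulk RNA, fewer cells of a type and less RNA per cell cannot be told apart.

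**Figure D3:**
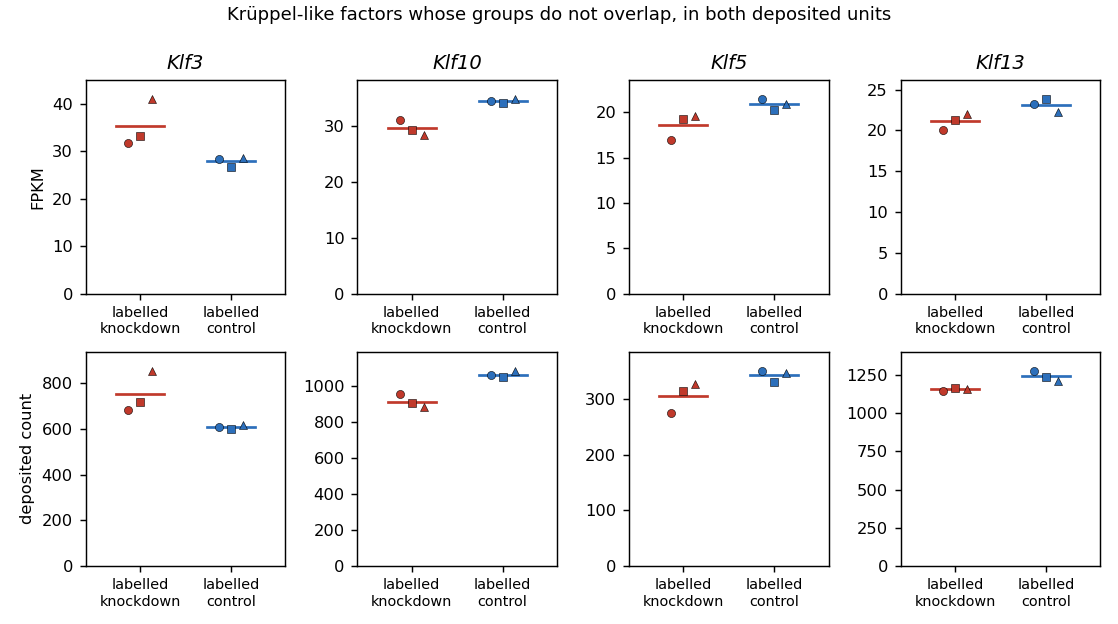
The 4 KLFs whose groups did not overlap, as FPKM (top row) and deposited count (bottom row); red marks are libraries labelled knockdown, blue marks those labelled control, bars the means, and all axes start at 0. Klf3 is higher in the libraries labelled knockdown through a spread of 31.8 to 40.9 FPKM, while Klf10, Klf5 and Klf13 are lower, with gaps that are small against the level.

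The sign changes of Klf4 and Klf7 between units go with an uneven ratio of FPKM to deposited count. FPKM is a count scaled by length and library size, and for Klf2, Klf5, Klf6, Klf9, Klf10 and Klf15 the highest library exceeded the lowest by a factor of at most 1.02. For Klf4, 100 deposited counts stood for 3.35, 3.36 and 3.23 FPKM in the libraries labelled knockdown, against 3.49, 3.56 and 3.91 FPKM in those labelled control, a factor of 1.21 between extremes. Each library labelled knockdown had less FPKM per count than each library labelled control. For Klf7 the same quantity was 1.92, 2.08 and 2.21 FPKM in knockdown-labelled libraries, against 1.86, 2.0 and 2.02 FPKM in those labelled control, a factor of 1.19. The factor was 1.1 for Klf13 and 1.08 for Klf3, beside a median of 1.07 over all tested genes, of which 43.0% exceeded 1.1. The tables give 1 row per gene and no isoform values, and the cause was not tested.

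**Figure D4:**
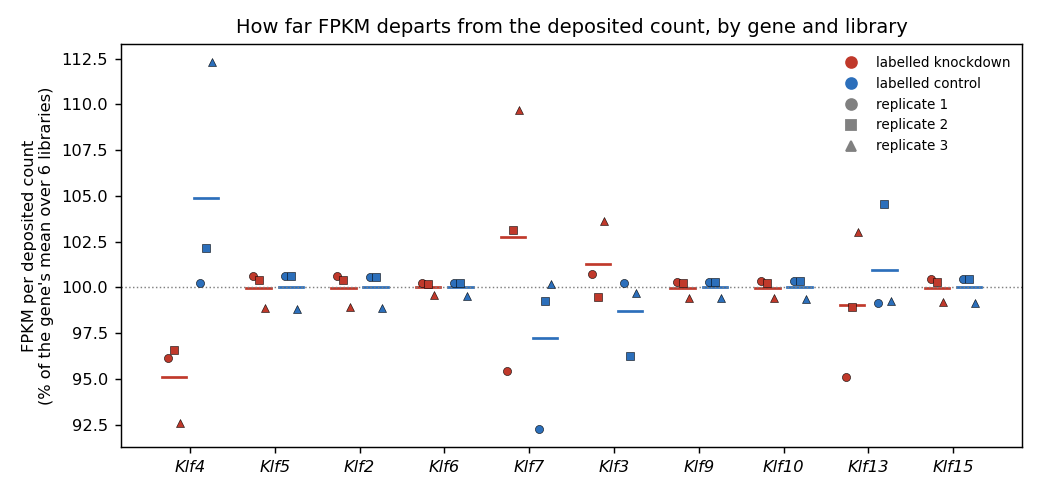
FPKM per deposited count as a percentage of each gene's mean over the 6 libraries; red marks are libraries labelled knockdown, blue marks those labelled control, shapes the replicate numbers and bars the group means. Klf4 and Klf7 spread most, by factors of 1.21 and 1.19 between the highest and lowest library, and for Klf4 all red marks lie below all blue marks.

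Of the 16 other KLF and SP genes in the table, 8 were tested and none was called by limma, beside 3.44% of all tested genes. At an unadjusted limma p under 0.05 there was 1, beside 22.4% of all tested genes, and 1 was called by edgeR, beside 9.95%. That gene was Klf11, the closest relative of Klf10, with 5.73, 5.47 and 5.45 FPKM in knockdown-labelled libraries, against 6.68, 6.56 and 7.47 FPKM in those labelled control. The groups were apart, with a log2 difference of -0.31 (limma adjusted p = 0.122; edgeR -0.30, adjusted p = 0.0493; DESeq2 adjusted p = 0.166), and its locus is given jointly with Cys1 and Rrm2. Klf16 and Sp4 were apart in FPKM too, also lower in the libraries labelled knockdown, beside 28.9% of all tested genes apart. Klf16 was at 9.48 ± 0.601 FPKM in knockdown-labelled libraries, against 10.4 ± 0.116 FPKM in control-labelled libraries (SD, n = 3 each; limma adjusted p = 0.349).

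Among the SP factors, which share the GC box with KLFs, the ubiquitous activators were the most abundant. Sp1 was at 39.6 ± 7.06 FPKM in knockdown-labelled libraries, against 38.6 ± 2.05 FPKM in control-labelled libraries (SD, n = 3 each). Sp3 was at 47.4 ± 4.05 FPKM in knockdown-labelled libraries, against 42.3 ± 5.27 FPKM in control-labelled libraries (SD, n = 3 each). In deposited counts Sp3 averaged 1491 in each group (edgeR log2 0.01, adjusted p = 0.893). FPKM per deposited count varied by a factor of 1.33 for Sp3 and 1.39 for Sp1. The Sp3 locus is given jointly with Cir1, Gm11084, Ola1, Scrn3 and Sp9. Sp2, Sp4, Sp6 and Sp8 averaged 0.727 to 5.42 FPKM in knockdown-labelled libraries, against 0.508 to 5.85 FPKM in control-labelled libraries, and the lowest limma adjusted p of these 6 genes was 0.259, for Sp4. Klf14 and Klf17 were listed at 0 in all 6 libraries, and Klf8, Klf12, Sp5, Sp7 and Sp9 had at most 4 fragments in any library. Klf1, the erythroid factor, had 1, 2 and 1 fragments in the libraries labelled knockdown and 0 in each labelled control, at or under the 3 fragments that a count of 0 allows.

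The partners through which KLFs act were described by lists. None of 18 corepressors and coactivators was called by limma, beside 3.44% of all tested genes. Their median log2 difference was -0.03. At an unadjusted p under 0.05 there were 2 of the 18, beside 22.4% of all tested genes. The 4 of smallest p were all lower on average in the libraries labelled knockdown, namely Tgif1, a TGF-β corepressor (57.4 ± 2.26 FPKM in knockdown-labelled libraries, against 66.3 ± 0.152 FPKM in control-labelled libraries, adjusted p = 0.0555), Hdac5, a class II histone deacetylase that binds MEF2 (adjusted p = 0.103), Ctbp1 (0.238) and the acetyltransferase Kat2a (0.240). Hdac5 was called lower by edgeR (log2 -0.20, adjusted p = 0.0260) and not by DESeq2 (adjusted p = 0.0951). It was the only edgeR call of the 18, beside 9.95% of all genes in that test. Sin3a, Sin3b and Ctbp2, the other direct partners, were among those not called.

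None of 12 genes of the ERK5-MEF2 and cAMP routes, which induce Klf2 and Klf4 in endothelium and other cells, was called by limma. Over all tested genes 3.44% were called. The median log2 difference of the 12 was -0.06. At an unadjusted p under 0.05 there were 4 of the 12, beside 22.4% of all tested genes. Map3k3, the kinase at the head of the ERK5 cascade, was at 13.4 ± 1.84 FPKM in knockdown-labelled libraries, against 18.2 ± 1.13 FPKM in control-labelled libraries (SD, n = 3 each; limma adjusted p = 0.0711; edgeR 0.0515). Mapk7, which encodes ERK5, was at 11.3 ± 0.811 FPKM in knockdown-labelled libraries, against 15.3 ± 2.84 FPKM in control-labelled libraries (limma adjusted p = 0.12), but its edgeR difference on counts was -0.10 (adjusted p = 0.537). Mef2c averaged 2.87 FPKM in knockdown-labelled libraries, against 3.95 FPKM in control-labelled libraries (limma adjusted p = 0.146). Creb5 averaged 2.16 FPKM in knockdown-labelled libraries, against 3.27 FPKM in control-labelled libraries. It was called lower by edgeR (log2 -0.58, adjusted p = 0.0336) but not by limma (adjusted p = 0.0909) or DESeq2 (adjusted p = 0.116). Creb5 was the only edgeR call of the 12, beside 9.95% of all genes in that test. These 4 are the genes of smallest p in the list and stand for their own values alone; Mef2a and Map2k5, of the same list, had positive log2 differences of 0.18 and 0.12 and were not called.

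Genes reported as targets of KLFs were mixed in direction. Only RNA was measured, and any action of a KLF on these genes in these cells was not tested. Of 27 listed, 23 were tested, 7 rose, 2 fell and 14 were not called by limma. Over all tested genes 3.44% were called, 1.83% higher and 1.61% lower. The list was chosen with earlier results of these data known. Its median log2 difference was 0.09, beside -0.0098 for all tested genes. The count of 9 was 3 to 5 when 1 of knockdown replicates 1, 2 and 3 or of control replicates 1 and 2 was left out. The chemokine Ccl5, a KLF13 target in T cells, rose most, to 375, 339 and 417 FPKM in the libraries labelled knockdown, against 77.3, 69.7 and 74.8 FPKM in those labelled control (log2 2.34 ± 0.08 SE, limma adjusted p = 2.25e-05). Klf13 itself was not called in the same libraries. Ctgf, a matrix protein gene that KLF15 represses in rodent heart fibroblasts, rose by 1.24 (adjusted p = 0.0106), and Klf15 had an interval of -0.90 to 0.63.

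The KLF6-linked gene Plau (log2 0.33, limma adjusted p = 0.0376) rose beside a Klf6 difference of 0.01. The other rises were Ccl2 (0.54), S1pr1 (0.33), Lgals3 (0.29) and the cell cycle inhibitor Cdkn1a (0.27), a gene that KLF4 and KLF6 are known to activate. The falls were Egr1, a growth-response factor linked to KLF5 in VSMCs (107, 108 and 107 FPKM in the libraries labelled knockdown, against 147, 153 and 150 FPKM in those labelled control; log2 -0.48, limma adjusted p = 0.00213), and the survival gene Birc5 (-0.21, adjusted p = 0.0317). Pdgfa, the best known KLF5 target in VSMCs, was at 28.7 ± 2.04 FPKM in knockdown-labelled libraries, against 20.2 ± 3.36 FPKM in control-labelled libraries (limma adjusted p = 0.0667; edgeR log2 0.30, adjusted p = 0.0341; DESeq2 adjusted p = 0.0848), opposite in sign to Klf5. It was named after its values were seen.

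**Figure D5:**
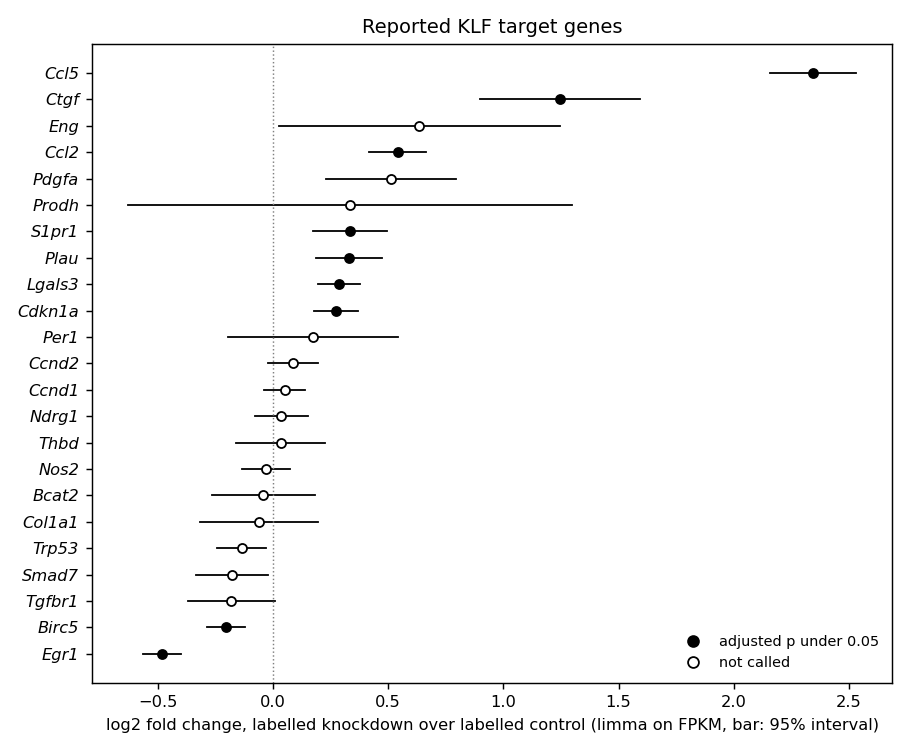
Log2 fold change with 95% interval (limma on FPKM), libraries labelled knockdown over those labelled control, for the 23 tested genes reported as KLF targets; filled points have an adjusted p under 0.05. Ccl5 (2.34) and Ctgf (1.24) lie farthest to the right and Egr1 (-0.48) farthest to the left, and 14 of the 23 are not called.

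The contractile genes stand beside these values as the known joint field of myocardin and KLF4. Of 13 genes listed, Myocd included, 11 were tested. Beside Myocd itself 5 rose (Acta2, Actg2, Myl9, Lmod1 and Des) and none fell. Over all tested genes 1.83% were called higher and 1.61% lower by limma. The count of 6 with Myocd was 3 without knockdown replicate 1, knockdown replicate 2 or control replicate 2. Actg2 was at 15.5 ± 1.14 FPKM in knockdown-labelled libraries, against 0.464 ± 0.0703 FPKM in control-labelled libraries (SD, n = 3 each; log2 4.79, limma adjusted p = 1.89e-05). Myocd and Actg2 averaged under 0.5 FPKM in the libraries labelled control, so they passed the filter on low values only through those labelled knockdown. Such genes could show a rise only, and no conclusion is drawn from their calls. Klf4 had no call in the same libraries, and a link between Klf4 and the contractile genes was not tested. Srf, the partner of myocardin, averaged 9.95 ± 0.444 FPKM in knockdown-labelled libraries, against 8.59 ± 0.565 FPKM in control-labelled libraries (limma adjusted p = 0.205); it was named after its values were seen.

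Among markers of other cells that express KLFs, Vwf alone was called by limma. It had passed the filter on low values only through the libraries labelled knockdown. Of 10 macrophage markers, 9 were in the table, 2 were tested and none was called by limma or edgeR. Over all genes tested these calls were 3.44% and 9.95%. Csf1r and Ptprc were at or near 0 in every library, and Cd68 was at 4.37 ± 1.05 FPKM in knockdown-labelled libraries, against 3.15 ± 1.24 FPKM in control-labelled libraries. The summed level was 4.61 to 5.53 FPKM in the libraries labelled knockdown and 2.83 to 5.50 FPKM in those labelled control. Of 8 adventitial fibroblast markers 6 were tested and none was called by limma, beside the same 3.44%. The summed level of the 8 was 1424 to 1616 FPKM in the libraries labelled knockdown and 1356 to 1519 FPKM in those labelled control. Most of it came from Ly6a. Cd34 fell in edgeR (34.0 ± 3.16 FPKM in knockdown-labelled libraries, against 40.6 ± 2.15 FPKM in control-labelled libraries, adjusted p = 0.0357) and in DESeq2 (adjusted p = 0.0412). It was the only edgeR call of the 8, beside 9.95% of all genes in that test. The part of these cells in the KLF values was not tested.

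In the table of long noncoding RNAs, 10 transcripts were paired by the authors with 5 of the members (Klf3, Klf5, Klf6, Klf7 and Klf13). Listed at 0 in every library were 6 of them, among them all intronic antisense partners of Klf3 and Klf13, and 2 were tested, of which none was called (background 4.26% of 4955 transcripts). AK020996, bidirectional to Klf6, had 1.69, 1.57 and 2.13 FPKM in the libraries labelled knockdown, against 0.781, 1.37 and 1.05 FPKM in those labelled control. The groups were apart, on 11 to 13 fragments per library labelled knockdown and 6 to 10 per library labelled control, with a log2 difference of 0.72 ± 0.28 (SE; limma adjusted p = 0.279), while Klf6 itself differed by 0.01. The transcript uc007bgn.1, which shares exons with Klf7 in the sense direction, was at 5.94 ± 2.76 FPKM in knockdown-labelled libraries, against 5.68 ± 0.697 FPKM in control-labelled libraries (limma adjusted p = 0.980), and its reads cannot be told apart from those of Klf7 where they overlap. The Klf3 partner uc012dwl.1 had 0.752 and 0.488 FPKM in knockdown replicates 1 and 2 and no fragment in the other 4 libraries, too little to test.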

How the data were processed

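RNA-seq values of 6 libraries were used, 3 in each labelled group. The authors deposited FPKM values and an estimated count per gene and library; per the submitters' processing notes, cutadapt, HISAT2 2.0.4, Cufflinks and Cuffdiff 2.2.1 were used, and mm10 and mm9 are named without roles. Whether strand entered the counting is not given in the sources used here. Gene starts have 1 added and then match mm10. Within a library low counts are multiples of 1 constant, so dividing by it recovered fragments: 89.3% to 90.4% of mRNA values and 65.2% to 66.5% of long noncoding RNA values came out whole within 0.01. Limits drawn from fragment numbers cover counting error only. Rows of 79 repeated symbols were summed, and 31550 distinct noncoding transcripts were used once each.

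The main test was limma 3.58.1 with trend (R 4.3.3) on log2(FPKM + 0.1), group as the only term, for genes with at least 0.5 FPKM (noncoding transcripts 0.1) in at least 3 of 6 libraries, adjusted by Benjamini-Hochberg over each table, two-sided, at 0.05. This scale understates the change of low genes. As alternatives, edgeR 4.0.16 and DESeq2 1.42.0 took as input the fragment numbers, rounded to whole numbers, since the deposited counts carry the scaling constant, with an adjusted p that DESeq2 left empty kept empty (Klf15), together with other pseudocounts, filters, scalings and left-out libraries. The scripts were tested on simulated data. Promoters are RefSeq's, GRCm38.p6.

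The members and the gene lists were chosen with earlier results of these data known. The genes named are all members, the other KLF and SP genes, Myocd, and in each list the called genes or the 4 of smallest p; genes of like pattern were to be named for each member called in the main limma test, of which there was none. Lists were described by counts, with no set test. A gene of the list of reported KLF targets is not reported here and is left out of that list's counts.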

Additional observations from a re-analysis of the deposited data

How the results depend on the processing

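The count of genes called by limma on FPKM, 400, was 144 without a trend, 624 with library weights, 243 with the replicate number as a block, 76 with both replicate 3 libraries left out and 44 to 178 with any 1 library left out. On counts it was 1150 by edgeR with TMM, 1153 with DESeq2 size factors, 1168 with no filter, 1715 with the replicate block, 717 by DESeq2 and 1129 by limma on log2(deposited count + 1), the last chosen after seeing the data. The count of KLFs called, 0, was 2 under each of those 6 count-based settings and 0 under the other alternatives. In edgeR, leaving out 1 library (chosen after seeing the data) gave 0 to 2 KLFs. Other pseudocounts, filters, quantile or median scaling and robust estimation left the KLF count at 0.

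Signs changed for 4 KLFs and 1 noncoding transcript, all with no call. Klf4, -0.09 in the main test, was 0.0568 by edgeR with TMM, 0.0555 with DESeq2 size factors, 0.0534 with no filter, 0.0551 by DESeq2, 0.0563 with the edgeR replicate block and 0.0448 on deposited counts. Klf7, 0.03 in the main test, was -0.0339, -0.0352, -0.0372, -0.0359, -0.0325 and -0.0445 under the same settings, and -0.0451 to 0.102 with 1 library left out. With 1 library left out Klf6 lay between -0.0130 and 0.0370, Klf15 between -0.372 and 0.0382, and uc007bgn.1 between -0.372 and 0.277. The cause was not tested. The median difference of all genes stayed within 0.0143 of 0 under each setting.

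Same-numbered libraries did not deviate together in every pair (correlations across genes of 0.037, -0.0039 and 0.0999). Differently numbered libraries had correlations of -0.0876 to 0.0588. Values this small do not settle if the numbers pair libraries, and the main test did not take them to. The replicate block changed no KLF call within limma or within edgeR. Depth was low for Klf15 (18 to 36 fragments per library) and AK020996 (6 to 13). With 3 libraries a group, an unmet threshold does not show equal levels.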
